A study of Mus musculus with 30 samples.

Results

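MGT cells are cardiac fibroblasts given the transcription factors Mef2c, Gata4 and Tbx5, a combination that starts the conversion of heart fibroblasts into induced cardiomyocyte-like cells. The comparison set MGT cells of 18-month-old mice against MGT cells of newborn mice, with 2 libraries a group. These 4 libraries of 30 in the series were chosen by their labels for age and treatment. All 16368 genes that passed a filter on low counts, of 55401 in the deposited table, were tested. The study asked why reprogramming is hindered in fibroblasts of adult and aged animals, and profiled fibroblasts and MGT cells by RNA-seq at several ages.

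The 18-month MGT cells were primary cells of the heart from wild-type mice, labelled cardiac fibroblast, treated with MGT and collected at day 3. The neonatal MGT cells had the same genotype, tissue, cell label, treatment and day, and came from mice of postnatal days 1 to 3. Further groups were used only to place the difference: LacZ cells of both ages, which received the beta-galactosidase gene in place of the factors and were collected at day 3, and MGT cells of 3-month-old mice. The labels do not say whether the libraries of a group came from separate animals or cultures, so p-values measure the spread between these libraries, which may be technical. The columns of the 18-month libraries are headed 15 months in the table, and the labels were followed.

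Cardiac fibroblasts build and remodel the matrix of the heart and sense injury and infection. In direct reprogramming, Gata4, Mef2c and Tbx5 bind enhancers of heart genes and switch on sarcomere and calcium-handling genes while the fibroblast programme is repressed. Fibroblasts also answer type I interferon, which through Stat2 and Irf9 induces antiviral genes, and NF-kappaB, which induces chemokines and cytokines. Fetal and newborn fibroblasts express growth genes, many of them imprinted, that are shut down in the first weeks of life.

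The 18-month libraries held 15999399 and 16099637 counts, and the neonatal ones 17755147 and 16608069. Levels are given per 1e6 counts (CPM) after scaling of the library totals, so that 1 CPM stood for about 16 to 17.8 counts. The median gene differed by 0.173 log2 units between the 18-month libraries and by 0.133 between the neonatal ones, against 0.292 to 0.323 between libraries of different age. The fibroblast markers Pdgfra, Thy1 and Ddr2 were present in all 4 libraries, while no lymphocyte and no erythroid marker passed the filter. Xist, the X-inactivation RNA expressed in females, had 0 and 0.25 CPM in 18-month MGT cells, against 526 and 439.8 CPM in neonatal MGT cells. The Y-linked genes Ddx3y, Eif2s3y, Kdm5d and Uty together had 300 and 255 CPM in 18-month MGT cells, against 103 and 97.8 CPM in neonatal MGT cells. In LacZ cells these Y-linked genes together had 271 and 266 CPM at 18 months, against 109 and 106 CPM in neonatal cells. In 3-month MGT cells they had 260 and 255 CPM. The sex make-up of the samples thus differed between neonatal and 18-month cells, and sex and age cannot be told apart. With the genes of chromosomes X and Y left out, 4826 of the 5003 calls described next remained. This only sets those genes aside, and an effect of sex on genes of other chromosomes was not tested.

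Of the genes tested, 2351 (14.4%) rose and 2652 (16.2%) fell in 18-month MGT cells at an adjusted p under 0.05 in edgeR's quasi-likelihood test with Benjamini-Hochberg adjustment, together 5003 (30.6%). Most differences were small: the median size among called genes was 0.69 on the log2 scale, 856 genes (5.23%) rose at least 2-fold and 976 (5.96%) fell at least 2-fold. A rise of at least 16-fold was seen for 78 genes and a fall of that size for 96. The median over all genes was -0.02. Counts of list members are to be read against these shares, which are repeated as background beside the main lists. Without 1 library at a time 3534 to 3986 genes were called, with the lowest count without neonatal replicate 2.

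**Figure D1:**
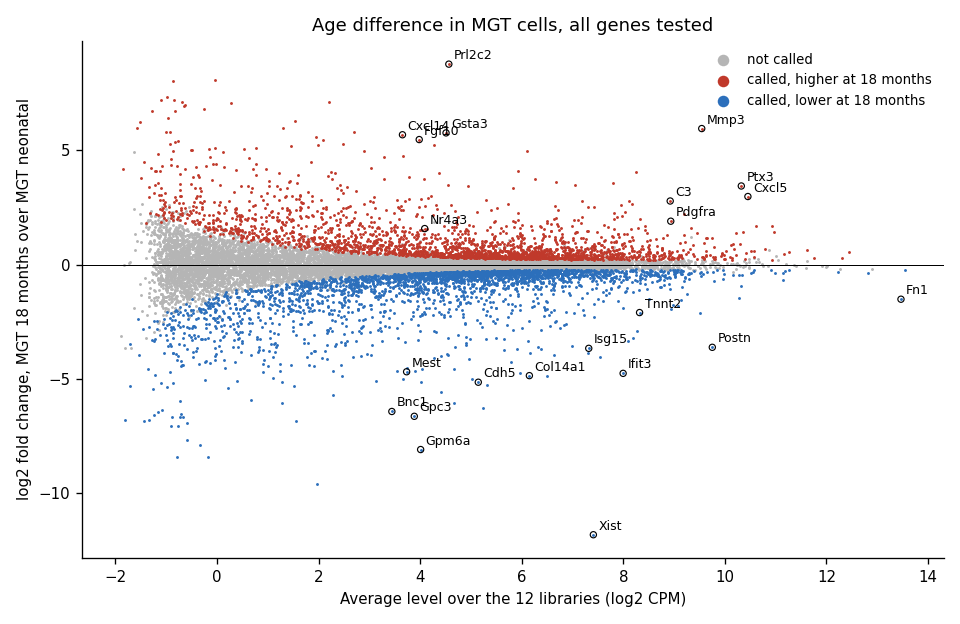
Each point is a tested gene, by its average level over 12 libraries (log2 CPM, x axis) and its log2 fold change in MGT cells of 18 months over neonatal (y axis), with called genes in red (higher at 18 months) and blue (lower). Differences beyond 2-fold also occurred among abundant genes, such as Mmp3 at 5.95 and Postn at -3.62, and the gene-wise spread was widest at low levels.

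Setting aside genes that averaged under 3 on the log2 CPM scale, the 12 largest rises were led by Prl2c2, a member of the prolactin family also called proliferin, with 34.6 and 48.6 CPM in 18-month MGT cells, against 0.112 and 0.0606 CPM in neonatal MGT cells. Those are 1329 counts in 18-month MGT cells against 3 in neonatal MGT cells, a ratio of 476 (exact 95% interval 162 to 2310, counting error only), and reads of its near-identical copies may be shared. Mmp3, the metalloproteinase stromelysin, had 727 and 659.7 CPM in 18-month MGT cells, against 12.4 and 9.93 CPM in neonatal MGT cells, a 62-fold rise (log2 5.95, SE 0.13, adjusted p = 1.34e-19). These 12 rises, and the 12 falls below, were taken among called genes whose libraries did not overlap between the ages. The separation of their libraries thus follows from the choice. With 2 libraries a group such separation is a weak criterion, and its share over all genes is not given.
Gsta3, a glutathione transferase, had 51.8 and 50.5 CPM in 18-month MGT cells, against 0.731 and 1.15 CPM in neonatal MGT cells (log2 5.76, SE 0.19). The secreted signals in this set were the chemokine Cxcl14 at 24 and 21.6 CPM in 18-month MGT cells, against 0.618 and 0.242 CPM in neonatal MGT cells, and the growth factor Fgf10 at 25.5 and 26.9 CPM in 18-month MGT cells, against 0.675 and 0.485 CPM in neonatal MGT cells. F3, tissue factor, which starts blood clotting, had 551 and 488 CPM in 18-month MGT cells, against 35.3 and 27.1 CPM in neonatal MGT cells, and Serpinb2, an inhibitor of plasminogen activators, had 108 and 106 CPM in 18-month MGT cells, against 2.92 and 3.94 CPM in neonatal MGT cells. The libraries of these 5 genes do not overlap either, by the same choice. The remaining rises were Alpl (log2 5.24), Eef1a2 (4.75), Sprr2h (4.70), Vit (4.23) and Cxcl3 (4.10), of which Sprr2h and Cxcl3 belong to families of similar genes whose reads may be shared.

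With the same limit on level, the largest falls after Xist were those of Gpm6a, a membrane glycoprotein, with 0.0628 and 0.0625 CPM in 18-month MGT cells, against 16.5 and 22 CPM in neonatal MGT cells, and of Gpc3, a glypican of fetal growth control, with 0.502 and 0.125 CPM in 18-month MGT cells, against 30.4 and 33.8 CPM in neonatal MGT cells. Gpm6a had 2 counts in 18-month MGT cells against 657 in neonatal MGT cells, a ratio of 306 of the neonatal over the 18-month level (exact 95% interval 84.3 to 2531, counting error only). The kinase gene Nrk fell by 6.30 on the log2 scale (SE 0.19), to 1.07 and 1.38 CPM in 18-month MGT cells, against 110.1 and 83.2 CPM in neonatal MGT cells. Bnc1 (log2 -6.43), a transcription factor of mesothelium, Slc38a4 (-5.59), an imprinted amino acid transporter, Ptprz1 (-5.26) and Pkhd1l1 (-5.16) followed. Cdh5, the junctional cadherin of endothelium, had 2.95 and 2 CPM in 18-month MGT cells, against 95.2 and 81.1 CPM in neonatal MGT cells (log2 -5.15, adjusted p = 1.96e-05). With Tie1 (-5.10) and Plvap (-5.03) it made 3 endothelial genes among the 12, and in bulk libraries fewer cells of a type and less RNA per cell cannot be told apart. Serpina3g (-6.08) completed the set, and its reads may be shared with similar serpins.

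**Figure D2:**
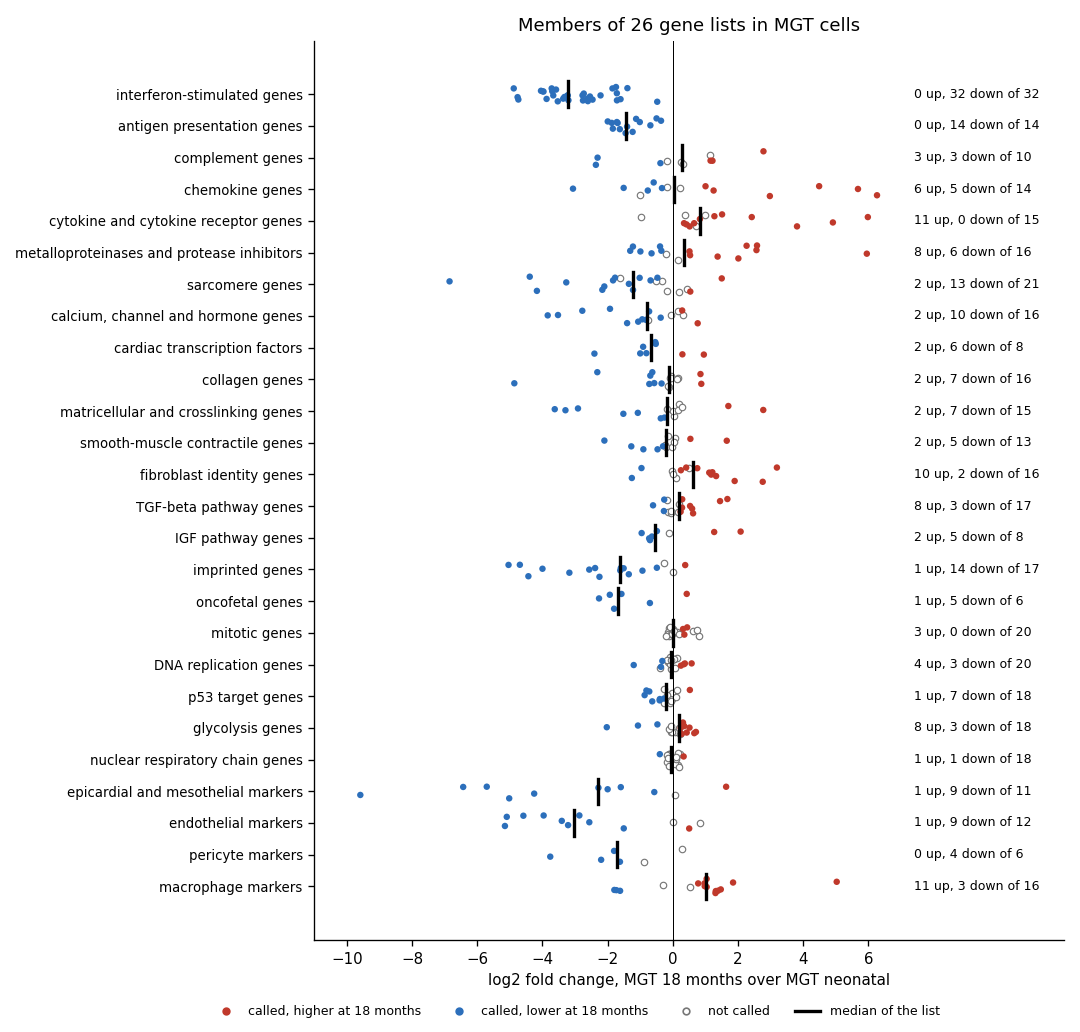
Each row is a gene list and each point a tested member by its log2 fold change in MGT cells of 18 months over neonatal (x axis), filled red or blue where called and open where not, with a black bar at the list's median. All 32 interferon-stimulated genes lie left of 0, imprinted genes and endothelial markers have low medians, and cytokine genes and macrophage markers lie mostly right of 0.

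The antiviral genes moved together. All 32 interferon-stimulated genes tested fell in 18-month MGT cells (background 16.2%), with a median of -3.21, against -0.02 over all genes. Their summed level was 498 and 544 CPM in 18-month MGT cells, against 4100 and 3455 CPM in neonatal MGT cells. Isg15 encodes a ubiquitin-like antiviral modifier, Ifit1 and Ifit3 encode RNA-binding antiviral proteins, and Bst2 encodes tetherin, which holds budding viruses at the membrane. The 250 bases before the start of these 4 genes are shown because each holds the interferon-stimulated response element (ISRE), searched as GAAANNGAAA on both strands, with matches and overlapping matches in capitals. Sequences are from RefSeq (GRCm38.p6), written 5′ to 3′ on the strand of the gene.
Isg15, chr4:156200819-156201068, minus strand: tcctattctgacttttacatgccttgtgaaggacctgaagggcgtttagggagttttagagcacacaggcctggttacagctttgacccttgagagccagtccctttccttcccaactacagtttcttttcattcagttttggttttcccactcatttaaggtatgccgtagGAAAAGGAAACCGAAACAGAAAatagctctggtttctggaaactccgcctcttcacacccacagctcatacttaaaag
Ifit1, chr19:34640639-34640888, plus strand: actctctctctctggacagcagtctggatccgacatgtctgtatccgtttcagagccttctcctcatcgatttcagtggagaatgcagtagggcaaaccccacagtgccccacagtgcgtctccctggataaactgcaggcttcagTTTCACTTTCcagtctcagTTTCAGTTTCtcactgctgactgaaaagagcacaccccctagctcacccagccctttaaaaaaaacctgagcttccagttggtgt
Ifit3, chr19:34583279-34583528, plus strand: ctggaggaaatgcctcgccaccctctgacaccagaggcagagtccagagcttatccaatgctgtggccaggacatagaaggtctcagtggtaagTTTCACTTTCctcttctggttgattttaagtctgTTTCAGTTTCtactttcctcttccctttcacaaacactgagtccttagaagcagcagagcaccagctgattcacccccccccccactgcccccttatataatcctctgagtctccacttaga
Bst2, chr8:71537473-71537722, minus strand: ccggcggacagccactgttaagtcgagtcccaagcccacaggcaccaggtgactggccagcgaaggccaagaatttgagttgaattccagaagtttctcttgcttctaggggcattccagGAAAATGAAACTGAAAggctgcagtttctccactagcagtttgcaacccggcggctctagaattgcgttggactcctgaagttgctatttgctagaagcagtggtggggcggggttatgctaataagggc
Isg15 held 3 overlapping matches 56 to 68 bases before its start, and Ifit1, Ifit3 and Bst2 held 2 each. In windows of 300 bases (250 before and 50 after the start), 15 of the 24 list members found in the table of promoters held the element (62.5%), against 1079 of 27025 genes in all (3.99%). These matches describe the letters only, and no binding was measured.

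Isg15 had 13.2 and 18.3 CPM in 18-month MGT cells, against 218 and 182 CPM in neonatal MGT cells (log2 -3.67, SE 0.20, adjusted p = 8.97e-08). Ifit1 had 12.7 and 12.6 CPM in 18-month MGT cells, against 231 and 186 CPM in neonatal MGT cells, and Ifit3 had 11 and 11.9 CPM in 18-month MGT cells, against 349 and 272 CPM in neonatal MGT cells, a 27.2-fold fall (log2 -4.76, SE 0.30) whose reads may be shared with its close copy Ifit3b. Bst2 had 31.9 and 34.9 CPM in 18-month MGT cells, against 362 and 309 CPM in neonatal MGT cells (log2 -3.33). Levels of all 4 genes were far lower in the 18-month than in the neonatal libraries.
The largest fall was that of Ifi44 (log2 -4.88), an interferon-induced protein, with 3.58 and 4.75 CPM in 18-month MGT cells, against 142 and 104 CPM in neonatal MGT cells. The cytosolic RNA sensors fell too, Ddx58 (RIG-I) by 1.72 and Ifih1 (MDA5) by 2.22 on the log2 scale. Of the factors that carry the interferon signal, Stat2 had 22.3 and 25.3 CPM in 18-month MGT cells, against 159 and 135 CPM in neonatal MGT cells (log2 -2.63), and Irf9 fell by 1.74 on the log2 scale. Irf7, the factor that amplifies interferon production, had 9.04 and 12.9 CPM in 18-month MGT cells, against 151 and 112 CPM in neonatal MGT cells (log2 -3.58).
The smallest falls were those of Ifit2 (log2 -0.48), with 76.6 and 70.2 CPM in 18-month MGT cells, against 102 and 103 CPM in neonatal MGT cells, and of the nucleic acid sensor Zbp1 (log2 -1.39), with 5.77 and 10.1 CPM in 18-month MGT cells, against 25.9 and 15.6 CPM in neonatal MGT cells. The call of Zbp1 was lost without 18-month replicate 1 (log2 -1.03, adjusted p = 0.164) and without neonatal replicate 1 (-0.97, adjusted p = 0.164).

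The same 32 genes fell with age in LacZ cells (background 18.3%), with a median of -3.33. The difference between the age differences of MGT and LacZ cells, tested as an interaction term, was called for 1 of the 32, Ifit2 (0.55, SE 0.14, adjusted p = 0.0272). Against 3-month MGT cells, 30 of the 32 were lower at 18 months (background 9.29%), with a median of -2.33. Isg15 had 142 and 141 CPM in 3-month MGT cells, nearer to the neonatal than to the 18-month libraries, and Zbp1 was highest there, with 76.4 and 84.5 CPM. This comparison shares the 18-month libraries with the main one.

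**Figure D3:**
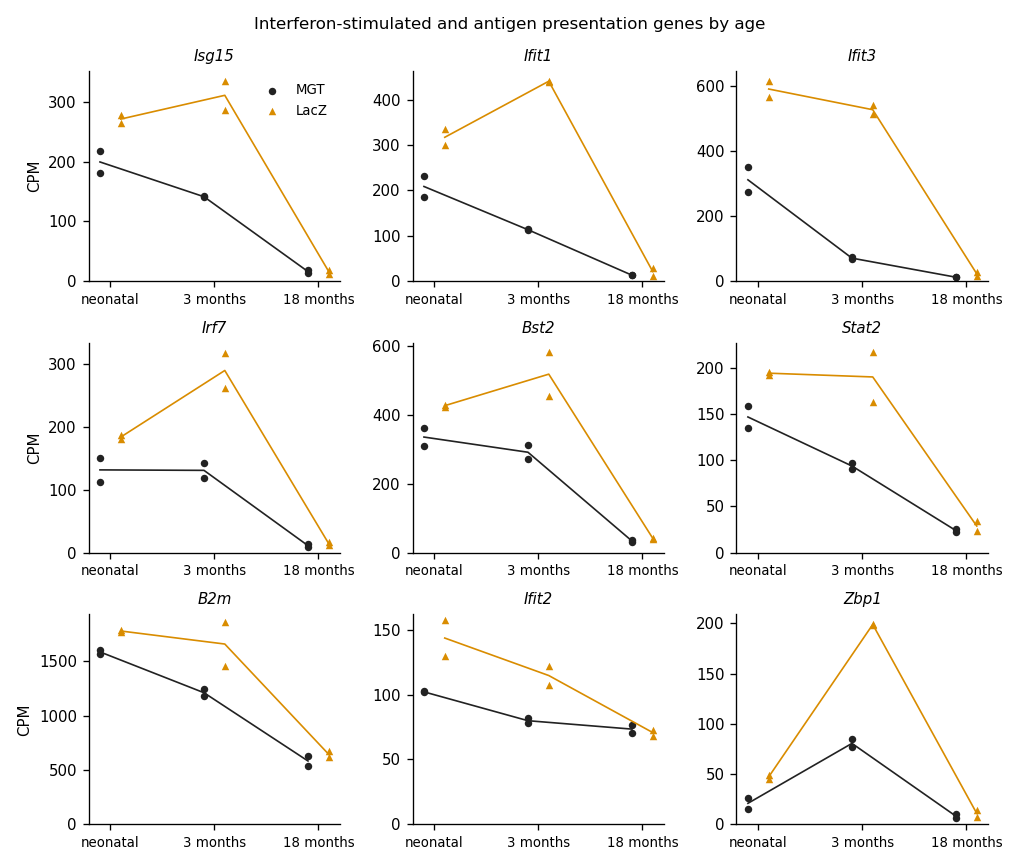
CPM of 9 interferon-stimulated and antigen presentation genes (y axis, from 0) by age, with 1 point a library, circles for MGT and triangles for LacZ cells, and lines joining group means. Isg15, Ifit1, Ifit3, Irf7, Bst2, Stat2 and B2m are lowest at 18 months with either treatment, Ifit2 shows the smallest difference, and Zbp1 is highest at 3 months with either treatment.

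All 14 antigen presentation genes fell as well (background 16.2%), with a median of -1.43. B2m, the light chain of MHC class I, had 625 and 538 CPM in 18-month MGT cells, against 1605 and 1567 CPM in neonatal MGT cells (log2 -1.45, SE 0.10, adjusted p = 2.29e-11), and H2-K1, a heavy chain, had 157 and 172 CPM in 18-month MGT cells, against 375 and 344 CPM in neonatal MGT cells (log2 -1.13). Class I heavy chain genes are alike in sequence, so reads may be shared between them. The peptide transporter Tap1 fell by 1.72, the immunoproteasome subunits Psmb8 and Psmb9 by 1.63 and 2.00, and Nlrc5, the activator of class I genes, by 1.40 on the log2 scale. In LacZ cells all 14 also fell (background 18.3%), with a median of -1.67. The interaction was called only for Tapbp (0.64, adjusted p = 0.00261), which encodes tapasin.

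Complement genes moved in both directions, with 3 of 10 called higher (background 14.4%), 3 lower (background 16.2%) and a median of 0.28. C3, the central component, had 686 and 741 CPM in 18-month MGT cells, against 109.5 and 97.9 CPM in neonatal MGT cells, a 6.88-fold rise (log2 2.78, SE 0.11, adjusted p = 1.47e-14). The initiating protease C1s1 rose by 1.22 on the log2 scale and C4b by 1.16, while the lectin-pathway protease Masp1 (log2 -2.31) and C2 (-2.36) fell. C1s1 had 46.2 and 45.1 CPM in 18-month MGT cells, against 19.6 and 19.7 CPM in neonatal MGT cells, and its age difference in LacZ cells was -0.15, so that the interaction was called at 1.37 (SE 0.17, adjusted p = 9.72e-06).

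Secreted inflammatory signals were mixed. Of 14 chemokine genes tested, 6 rose (background 14.4%), 5 fell (background 16.2%) and the median was 0.03. Cxcl5, a neutrophil attractant, had 1161 and 1123 CPM in 18-month MGT cells, against 176 and 114 CPM in neonatal MGT cells (log2 2.98, SE 0.19, adjusted p = 2.4e-06), and Cxcl1, of the same class, had 166 and 169 CPM in 18-month MGT cells, against 91.9 and 74.6 CPM in neonatal MGT cells (log2 1.00). Ccl11, eotaxin, had 90 counts in 18-month MGT cells against 1 in neonatal MGT cells, a ratio of 96.7 (exact 95% interval 16.9 to 3860, counting error only).
Those that fell included the interferon-induced Cxcl10, with 2.95 and 4.31 CPM in 18-month MGT cells, against 29.5 and 31.4 CPM in neonatal MGT cells (log2 -3.06), and Cx3cl1 (log2 -1.51), the membrane-bound fractalkine. Ccl2, the monocyte attractant and one of the most abundant, fell by 0.33 on the log2 scale, with 603 and 569.6 CPM in 18-month MGT cells, against 743 and 733 CPM in neonatal MGT cells.

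Of 15 cytokine and cytokine receptor genes, 11 rose (background 14.4%) and none fell (background 16.2%), with a median of 0.83. Il11, a cytokine of the interleukin-6 family linked to fibrosis, had 15.5 and 19.1 CPM in 18-month MGT cells, against 1.52 and 0.908 CPM in neonatal MGT cells (log2 3.81, SE 0.26, adjusted p = 3.44e-11). The colony-stimulating factor Csf1, which sustains macrophages, had 3723 and 3978 CPM in 18-month MGT cells, against 2409 and 2482 CPM in neonatal MGT cells (log2 0.65), and the receptor Il1r1 had 145 and 127 CPM in 18-month MGT cells, against 78.3 and 74.7 CPM in neonatal MGT cells (log2 0.83). The receptor antagonist Il1rn rose by 1.51 and the cytokine Lif by 0.52 on the log2 scale. Il1rl1, the receptor of interleukin-33, had 74 counts in 18-month MGT cells against 1 in neonatal MGT cells (ratio 79.5, exact 95% interval 13.8 to 3181, counting error only). None of the 15 was called in the interaction, and in LacZ cells 12 rose (background 16.7%) and 1 fell (background 18.3%). Against 3-month MGT cells, 10 of the 15 were lower at 18 months (background 9.29%) and 1 was higher (background 8.12%).

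Among 5 acute-phase genes 2 rose (background 14.4%) and 2 fell (background 16.2%). Ptx3, a pentraxin that marks tissue inflammation, had 1681 and 1430 CPM in 18-month MGT cells, against 156 and 130.4 CPM in neonatal MGT cells (log2 3.44, SE 0.11, adjusted p = 2.94e-17). Saa3, a serum amyloid, had 107 and 120.4 CPM in 18-month MGT cells, against 129 and 152 CPM in neonatal MGT cells, which was not called (log2 -0.31, adjusted p = 0.262, though 0.023 with only the groups compared in the fit), whereas in LacZ cells it had 7.71 and 8.09 CPM at 18 months, against 127 and 96.3 CPM in neonatal cells. The interaction for Saa3 was 3.51 (SE 0.30, adjusted p = 0.000254). Hp, haptoglobin, had 19.1 and 19.8 CPM in 18-month MGT cells, against 7.14 and 8.05 CPM in neonatal MGT cells (log2 1.36), but fell with age in LacZ cells (log2 -1.50), and its interaction was 2.85 (adjusted p = 5.01e-06).
Of the subunits and targets of NF-kappaB, 4 of 15 rose (background 14.4%), 4 fell (background 16.2%) and the median was 0.12. The median was -0.19 without 18-month replicate 2, with 2 higher and 2 lower. The falls numbered 2 without neonatal replicate 1, and the rises numbered 2 without neonatal replicate 2. Icam1, an adhesion molecule, rose by 0.79 on the log2 scale, while Nfkbia, the inhibitor of NF-kappaB, fell by 0.55.

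Of 16 metalloproteinases and protease inhibitors tested, 8 rose (background 14.4%) and 6 fell (background 16.2%). Besides Mmp3, the collagenase Mmp13 (log2 2.26), Mmp10 (2.57), Mmp9 (2.59) and the macrophage elastase Mmp12 (2.01) rose. The gelatinase Mmp2 had 163 and 173 CPM in 18-month MGT cells, against 393 and 391 CPM in neonatal MGT cells and fell (log2 -1.22, SE 0.08), as did Mmp14, its activator at the membrane (-0.65). Among the inhibitors, Timp1 had 1466 and 1514 CPM in 18-month MGT cells, against 593 and 555 CPM in neonatal MGT cells and rose (log2 1.38), whereas Timp3 fell by 0.99 and Timp2 by 0.39 on the log2 scale.

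The reads of the delivered factors differed little between the ages. Tbx5 had 243 and 298 CPM in 18-month MGT cells, against 218 and 270 CPM in neonatal MGT cells (log2 0.15, adjusted p = 0.318), and Mef2c had 151 and 179.9 CPM in 18-month MGT cells, against 178 and 219 CPM in neonatal MGT cells (log2 -0.27, adjusted p = 0.0645). The libraries of both genes overlapped between the ages. Gata4 had 216 and 249.7 CPM in 18-month MGT cells, against 268 and 305 CPM in neonatal MGT cells and was called lower (log2 -0.30, SE 0.09, adjusted p = 0.0103), a call lost without 18-month replicate 1 (-0.18, adjusted p = 0.199) or without neonatal replicate 2 (-0.21, adjusted p = 0.174). Mef2c was called lower without 18-month replicate 2 (-0.41, adjusted p = 0.0258) and without neonatal replicate 1 (-0.40, adjusted p = 0.0163). In LacZ cells Tbx5 had 0.464 and 0.746 CPM at 18 months, against 2.45 and 1.97 CPM in neonatal cells. These counts may include reads of the delivered copies, which could not be separated from those of the cells' own genes.

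Heart muscle genes were mostly lower at 18 months. Of 21 sarcomere genes tested, of 24 in the list, 13 fell (background 16.2%) and 2 rose (background 14.4%), with a median of -1.22. With genes limited to a mean CPM of at least 1 the median was -0.84. Without 18-month replicate 2 or neonatal replicate 1 only 1 of the risers was called. Tnnt2, cardiac troponin T, had 248 and 254 CPM in 18-month MGT cells, against 879 and 1276 CPM in neonatal MGT cells (log2 -2.10, SE 0.18, adjusted p = 1.22e-05). Neonatal replicate 2 was the higher of its group for this gene and for many other sarcomere genes, and without it the list's median was -0.88.
Actc1, cardiac alpha-actin, and Myl7, the atrial myosin light chain, are shown with the 250 bases before their starts because each holds the CArG box, bound by serum response factor in muscle genes, here in capitals (RefSeq, GRCm38.p6, 5′ to 3′ on the strand of the gene).
Actc1, chr2:114052876-114053125, minus strand: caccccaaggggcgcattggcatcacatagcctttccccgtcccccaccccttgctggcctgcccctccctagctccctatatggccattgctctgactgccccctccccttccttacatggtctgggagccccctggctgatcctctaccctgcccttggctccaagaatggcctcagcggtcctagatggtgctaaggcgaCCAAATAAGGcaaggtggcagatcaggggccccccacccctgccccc
Myl7, chr11:5898783-5899032, minus strand: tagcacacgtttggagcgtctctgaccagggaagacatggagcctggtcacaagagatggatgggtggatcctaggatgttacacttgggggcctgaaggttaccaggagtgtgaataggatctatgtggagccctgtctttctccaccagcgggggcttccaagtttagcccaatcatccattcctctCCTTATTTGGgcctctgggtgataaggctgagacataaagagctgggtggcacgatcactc
The box lay 37 bases before the start of Actc1 and 51 before that of Myl7. It was found in the 300-base windows of 7 of 22 sarcomere genes (31.8%), namely Actc1, Acta1, Myl3, Myl7, Ldb3, Nebl and Myom1, against 488 of 27025 genes in all (1.81%). Genes with the box did not share a direction, since Acta1 rose and Actc1 and Myl7 fell.

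Actc1 had 17.5 and 20.7 CPM in 18-month MGT cells, against 35.5 and 61.8 CPM in neonatal MGT cells (log2 -1.35, SE 0.22, adjusted p = 0.000312). Myl7 had 13.7 and 13.6 CPM in 18-month MGT cells, against 47.2 and 75.2 CPM in neonatal MGT cells (log2 -2.16, SE 0.18, adjusted p = 2.56e-08). Both neonatal libraries were above both 18-month libraries for each gene, though they also differed between themselves by more than the 18-month libraries did.
Myom1, a protein of the M-band, fell by 1.22 and Mybpc3, cardiac myosin-binding protein C, by 1.77 on the log2 scale. Myh6, the adult atrial and ventricular myosin heavy chain, had 2 counts in 18-month MGT cells against 277 in neonatal MGT cells, a ratio of 129 of the neonatal over the 18-month level (exact 95% interval 35.4 to 1070, counting error only). Acta1, skeletal alpha-actin, went against the group, with 5.96 and 6.94 CPM in 18-month MGT cells, against 2.42 and 2.12 CPM in neonatal MGT cells (log2 1.503, adjusted p = 0.000221). Myl4, the embryonic atrial light chain, was among the most abundant and was not called, with 403 and 455 CPM in 18-month MGT cells, against 250.2 and 383 CPM in neonatal MGT cells (log2 0.44, adjusted p = 0.069). Its log2 difference was 0.77 without neonatal replicate 2. Des, desmin, had 242 and 259.5 CPM in 18-month MGT cells, against 249 and 315 CPM in neonatal MGT cells (log2 -0.17, adjusted p = 0.183), with overlapping libraries, and was called lower only without neonatal replicate 1 (-0.33, adjusted p = 0.023).

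In LacZ cells 15 of the 21 sarcomere genes fell with age (background 18.3%) and none rose (background 16.7%), with a median of -2.21. Tnnt2 had 4.11 and 2.49 CPM in 18-month LacZ cells, against 310 and 262 CPM in neonatal LacZ cells, so neonatal cells already expressed it without the factors. Summed over the list, MGT cells had 2648 and 2651 CPM at 18 months, against 3633 and 4692 CPM in neonatal cells, and LacZ cells had 902.5 and 887 CPM at 18 months, against 1514 and 1449 CPM in neonatal cells. The part of heart muscle cells carried over into the neonatal cultures was not tested.
The interaction was called for 6 sarcomere genes, all with a positive sign (background 2.03%). Their age difference was smaller in MGT than in LacZ cells on the log2 scale. In CPM the falls of Tnnt2 and of the list's sum were larger in MGT than in LacZ cells, and the other genes were not compared in CPM. For Tnnt2 the interaction was 4.32 (SE 0.31, adjusted p = 5.68e-05) and for Des 1.80 (SE 0.18, adjusted p = 2.79e-07). Actc1 (5.70), Myl7 (5.71) and Mybpc3 (5.81) had 1, 1 and 0 counts in 18-month LacZ cells, so the size of these estimates depends on the prior count of the fit.

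**Figure D4:**
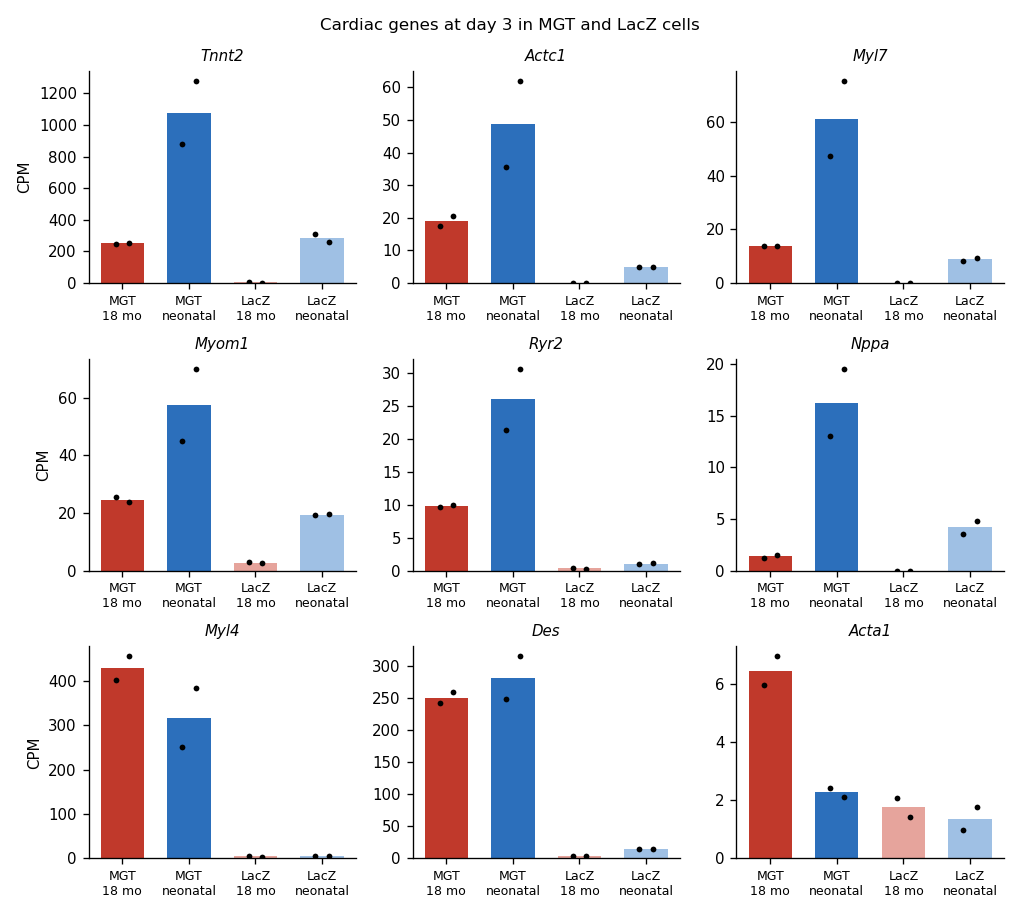
CPM of 9 cardiac genes (y axis, from 0) in MGT cells of 18 months and neonatal and in LacZ cells of 18 months and neonatal, with bars at group means and 1 point a library. Tnnt2, Actc1, Myl7, Myom1, Ryr2 and Nppa are lower in 18-month than in neonatal MGT cells, Acta1 is higher, and LacZ cells of 18 months have at most 4.11 CPM of Tnnt2, against at least 262 CPM in neonatal LacZ cells.

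Of 8 heart transcription factors tested, 6 fell and 2 rose, with a median of -0.67, and only 1 rose without 18-month replicate 2 or neonatal replicate 2. Gata6, a relative of Gata4, had 42.6 and 40.9 CPM in 18-month MGT cells, against 80.7 and 86.2 CPM in neonatal MGT cells (log2 -1, SE 0.09), and Tbx20, a T-box factor of heart development, had 755 and 661 CPM in 18-month MGT cells, against 989.6 and 1044 CPM in neonatal MGT cells (log2 -0.52). Mef2a fell by 0.81 and Hand2 by 0.54 on the log2 scale. Over all genes the shares were 16.2% lower and 14.4% higher. Tbx3, which specifies the conduction system, rose, with 8.91 and 10.9 CPM in 18-month MGT cells, against 4.84 and 5.39 CPM in neonatal MGT cells (log2 0.95, adjusted p = 0.00102), and was not called in LacZ cells (interaction 1.34, adjusted p = 0.0323).
Of 16 genes of calcium handling, channels and heart hormones, 10 fell and 2 rose, with a median of -0.80, and 1 rose without 18-month replicate 2 or neonatal replicate 2 and none without neonatal replicate 1. Ryr2, the calcium release channel, had 9.6 and 10.0 CPM in 18-month MGT cells, against 21.3 and 30.6 CPM in neonatal MGT cells (log2 -1.40, adjusted p = 4.74e-07), and Casq2, the calcium store protein, had 23 and 17.8 CPM in 18-month MGT cells, against 29.2 and 43.1 CPM in neonatal MGT cells (log2 -0.82), a call lost without neonatal replicate 2 (-0.53, adjusted p = 0.0585). Nppa, the atrial natriuretic peptide, had 1.26 and 1.56 CPM in 18-month MGT cells, against 13 and 19.6 CPM in neonatal MGT cells (log2 -3.52). The counts of this list are likewise to be read against 16.2% lower and 14.4% higher over all genes. With genes limited to a mean CPM of at least 1, 6 members of this list fell and the median was -0.72.

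The contractile genes of smooth muscle, which activated fibroblasts also express, were mixed. Of 13 tested, 2 were higher (background 14.4%) and 5 lower (background 16.2%), with a median of -0.20. Acta2, smooth-muscle actin, had 2993 and 2858 CPM in 18-month MGT cells, against 3501 and 3703 CPM in neonatal MGT cells (log2 -0.30, adjusted p = 0.00426), a call lost without neonatal replicate 2 (-0.27, adjusted p = 0.0562), and Tagln fell by 0.47 on the log2 scale. Myh11, the smooth-muscle myosin, rose, with 19 and 15.9 CPM in 18-month MGT cells, against 5.57 and 5.51 CPM in neonatal MGT cells (log2 1.66). Against 3-month MGT cells the picture differed: 10 of the 13 were higher at 18 months (background 8.12%) and none lower, Acta2 by 0.83 and Myh11 by 2.72 on the log2 scale.

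Of 16 collagens 7 fell (background 16.2%) and 2 rose (background 14.4%), with a median of -0.13. The falls numbered 4 without 18-month replicate 1, and whichever library was left out only 1 collagen rose. The median was -0.28 without 18-month replicate 2. Col14a1, a collagen of fibril surfaces, had 4.2 and 4.13 CPM in 18-month MGT cells, against 107 and 136 CPM in neonatal MGT cells (log2 -4.86, SE 0.42, adjusted p = 0.000141), and Col11a1, of developing cartilage and tendon, had 50.1 and 57.4 CPM in 18-month MGT cells, against 273 and 262 CPM in neonatal MGT cells (log2 -2.32). Col1a1, the main fibrillar collagen, had 4083 and 5202 CPM in 18-month MGT cells, against 5959 and 5828 CPM in neonatal MGT cells (log2 -0.34, adjusted p = 0.00709), a call lost without 18-month replicate 1 (-0.16, adjusted p = 0.251) or neonatal replicate 1 (-0.33, adjusted p = 0.0514). In LacZ cells Col1a1 fell more (log2 -1.19, interaction 0.85, adjusted p = 0.000317), and 13 of the 16 collagens fell there (background 18.3%).
Of 15 matricellular and crosslinking genes 7 fell (background 16.2%) and 2 rose (background 14.4%). Postn, periostin, a matrix protein of fetal and injured heart, had 175 and 167 CPM in 18-month MGT cells, against 2115 and 2092 CPM in neonatal MGT cells, a 12.3-fold fall (log2 -3.62, SE 0.10, adjusted p = 1.87e-19). Fn1, fibronectin, was the most abundant of these, with 5861 and 6389 CPM in 18-month MGT cells, against 17530 and 17530 CPM in neonatal MGT cells (log2 -1.52), and Eln, elastin, fell by 3.29 on the log2 scale. The genes that rose were Tnc, tenascin C, with 2877 and 3022 CPM in 18-month MGT cells, against 952 and 858 CPM in neonatal MGT cells (log2 1.70), and Spp1, osteopontin, with 276 and 225 CPM in 18-month MGT cells, against 34.8 and 38.3 CPM in neonatal MGT cells (log2 2.78). Periostin and tenascin C, both proteins of wound matrix, thus had opposite age differences.
Among 9 small leucine-rich proteoglycans 3 rose and 2 fell, of which 1 was called without 18-month replicate 1 or neonatal replicate 2. The shares over all genes were 14.4% higher and 16.2% lower. Dcn, decorin, had 669.7 and 572 CPM in 18-month MGT cells, against 469.9 and 415 CPM in neonatal MGT cells (log2 0.49), but fell with age in LacZ cells (log2 -0.34), with an interaction of 0.83 (adjusted p = 0.000224).

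Genes that mark fibroblasts were more often higher, with 10 of 16 up (background 14.4%), 2 down (background 16.2%) and a median of 0.63. Without 18-month replicate 2 only 1 was down. Pdgfra, the platelet-derived growth factor receptor used to identify cardiac fibroblasts, had 448 and 457 CPM in 18-month MGT cells, against 131 and 112 CPM in neonatal MGT cells (log2 1.90, SE 0.09, adjusted p = 8.43e-15). Ddr2, a collagen receptor, rose by 0.75 on the log2 scale, S100a4 by 1.18 and Cd34 by 1.33. Tcf21, the transcription factor of the fibroblast lineage of the heart, fell, with 55.4 and 44.2 CPM in 18-month MGT cells, against 118 and 120 CPM in neonatal MGT cells (log2 -1.26, adjusted p = 4.67e-08). Meox2, a homeobox factor, had 3.77 and 5.81 CPM in 18-month MGT cells, against 0.562 and 0.848 CPM in neonatal MGT cells (log2 2.76). Ly6a, the Sca-1 antigen, rose by 1.21 in MGT cells and by 2.34 in LacZ cells on the log2 scale (interaction -1.13, adjusted p = 6.74e-05).

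Growth genes of the newborn were lower almost throughout. Of 17 imprinted genes tested 14 fell (background 16.2%) and 1 rose (background 14.4%), with a median of -1.61. The one that rose was Peg10 (log2 0.38), a call lost without 18-month replicate 2 (0.31, adjusted p = 0.13) or neonatal replicate 2 (0.24, adjusted p = 0.211). Mest had 1.69 and 2 CPM in 18-month MGT cells, against 49.7 and 46.3 CPM in neonatal MGT cells (log2 -4.69, SE 0.20, adjusted p = 5.3e-16), and H19, a noncoding RNA next to Igf2, had 0.69 and 1.06 CPM in 18-month MGT cells, against 15.4 and 12.8 CPM in neonatal MGT cells (log2 -4). Igf2, the fetal insulin-like growth factor, had 2 counts in 18-month MGT cells against 79 in neonatal MGT cells (ratio 36.8 of the neonatal over the 18-month level, exact 95% interval 9.85 to 309, counting error only). The noncoding RNAs Meg3 and Rian of 1 imprinted cluster fell by 1.59 and 1.51, and the growth regulators Plagl1, Peg3 and Grb10 by 3.17, 2.25 and 1.61 on the log2 scale. Against 3-month MGT cells 3 of the 17 were lower at 18 months (background 9.29%) and 1 was higher (background 8.12%), and H19 had 1.18 and 1.24 CPM at 3 months, close to its level at 18 months.
Of 6 oncofetal genes 1 rose, the chromatin protein gene Hmga1 (log2 0.43), a call lost without 18-month replicate 2 (0.32, adjusted p = 0.056). The other 5 fell (background 16.2%, and 14.4% for rises): the RNA-binding proteins Igf2bp1, Igf2bp2 and Igf2bp3 by 2.26, 1.93 and 1.80, Plag1 by 1.58 and Hmga2 by 0.70 on the log2 scale. Igf2bp2 had 34.8 and 37.3 CPM in 18-month MGT cells, against 135 and 140.4 CPM in neonatal MGT cells.

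Of 17 genes of the TGF-beta pathway 8 rose (background 14.4%) and 3 fell (background 16.2%), with a median of 0.18. The rises numbered 5 without 18-month replicate 2 and 5 without neonatal replicate 2, where 1 gene fell, and the median was 0.33 without 18-month replicate 1. The ligand Tgfb2 fell by 0.61 on the log2 scale, whereas the co-receptor Tgfbr3 had 94.3 and 97.4 CPM in 18-month MGT cells, against 33.3 and 26.6 CPM in neonatal MGT cells (log2 1.68), the latent binding protein Ltbp2 rose by 1.45, the activin gene Inhba by 0.59 and the inhibitor Smad7 by 0.62. Of 13 BMP pathway genes 6 rose and 4 fell, and 2 fell without 18-month replicate 2 or without either neonatal library. The shares over all genes were 14.4% higher and 16.2% lower. The antagonist Grem1 rose (log2 1.16).
Of 14 Wnt pathway genes 4 rose (background 14.4%) and 6 fell (background 16.2%), with a median of -1.19. The secreted antagonist Frzb had 316 and 295 CPM in 18-month MGT cells, against 105 and 93.6 CPM in neonatal MGT cells (log2 1.62), while the antagonists Dkk3 and Dkk2 fell by 1.90 and 1.76 on the log2 scale. Dkk2 was not called in LacZ cells (log2 0.09, interaction -1.85, adjusted p = 0.000378). The ligand Wnt5a rose by 0.76 in MGT cells and fell by 0.37 in LacZ cells on the log2 scale (interaction 1.13, adjusted p = 0.000261).
Of 8 genes of the IGF pathway 5 fell (background 16.2%) and 2 rose (background 14.4%). Igf1 fell by 0.96 and its receptor Igf1r by 0.70, the binding protein Igfbp6 had 26.5 and 28.6 CPM in 18-month MGT cells, against 6.92 and 6.06 CPM in neonatal MGT cells (log2 2.08), and Igfbp4 had 54.1 and 72.9 CPM in 18-month MGT cells, against 28.6 and 24 CPM in neonatal MGT cells (log2 1.27). Igfbp4 went the other way in LacZ cells (log2 -1.02), with an interaction of 2.29 (SE 0.24, adjusted p = 0.00015).

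Of 20 mitotic genes 3 rose in MGT cells, near the share over all genes (14.4%), none fell and the median was 0.00. In LacZ cells 13 of the 20 rose (background 16.7%), with a median of 0.46. Mki67, a marker of cycling cells, had 213 and 217 CPM in 18-month MGT cells, against 193 and 86.8 CPM in neonatal MGT cells (log2 0.62, SE 0.38, adjusted p = 0.289). Neonatal replicate 2 was low for Mki67 and for the long kinetochore transcripts Cenpe, with 86.9 and 83.8 CPM in 18-month MGT cells, against 66.8 and 29.7 CPM in neonatal MGT cells, and Cenpf. When neonatal replicate 1 was left out instead, Mki67 was called higher (log2 1.31, adjusted p = 0.0142), Cenpe (1.52) and Cenpf (1.69) too, and 6 mitotic genes in all. Without neonatal replicate 2 none was called, and Kif20a, Aurka and Plk1 lost their calls (adjusted p = 0.197, 0.137 and 0.466), Aurka and Plk1 also without 18-month replicate 1 (0.0828 and 0.0811). The interaction was called, with negative sign, for Cdk1 (-0.59, adjusted p = 0.00755) and Ccnb2 (-0.59, adjusted p = 0.0183), which drive entry into mitosis (background 0.788%).
Of 20 DNA replication genes 4 rose and 3 fell, near the shares over all genes (14.4% and 16.2%), with a median of -0.06. Without 18-month replicate 2 or neonatal replicate 1 only 1 rose. Rrm2, the regulated subunit of ribonucleotide reductase, had 237 and 205 CPM in 18-month MGT cells, against 148 and 148 CPM in neonatal MGT cells (log2 0.58, adjusted p = 4.86e-06).

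Of 10 CDK inhibitors and Rb family genes 2 rose (background 14.4%) and 3 fell (background 16.2%). Cdkn2a, which encodes p16 and p19 and rises in senescent cells, had 14.9 and 15.8 CPM in 18-month MGT cells, against 10.46 and 6.66 CPM in neonatal MGT cells (log2 0.84, SE 0.17, adjusted p = 0.000466). Cdkn1a, the p53 target p21, had 662 and 692 CPM in 18-month MGT cells, against 671 and 701 CPM in neonatal MGT cells (log2 -0.02, adjusted p = 0.89), and Cdkn2b, p15, had 15.7 and 19.3 CPM in 18-month MGT cells, against 18.4 and 19 CPM in neonatal MGT cells (log2 -0.10, adjusted p = 0.672). The sign of both small differences turned when 18-month replicate 1 was left out. Cdkn2b fell in LacZ cells (log2 -1.07, interaction 0.97, adjusted p = 0.00843). Cdkn1b, p27, had 27.7 and 23.2 CPM in 18-month MGT cells, against 49.98 and 45.2 CPM in neonatal MGT cells and fell (log2 -0.90).
Of 18 p53 target genes 7 fell (background 16.2%) and 1, Plk2, rose (background 14.4%), with a median of -0.21, or -0.10 without 18-month replicate 1. The pro-apoptotic genes Pmaip1 (Noxa) and Bbc3 (Puma) fell by 0.81 and 0.72 on the log2 scale, and Trp53inp1 by 0.86.

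The study names the nuclear receptor Nr4a3 as an inhibitor of reprogramming, and all 3 members of its family were called higher (background 14.4%). Nr4a3 had 22.6 and 32.1 CPM in 18-month MGT cells, against 10.1 and 8.18 CPM in neonatal MGT cells, a 2.98-fold rise (log2 1.58, SE 0.18, adjusted p = 4.9e-07). Nr4a1 had 162 and 194 CPM in 18-month MGT cells, against 138 and 99.98 CPM in neonatal MGT cells (log2 0.58, adjusted p = 0.018), and Nr4a2 had 12.2 and 15.8 CPM in 18-month MGT cells, against 8.04 and 4 CPM in neonatal MGT cells (log2 1.21, adjusted p = 0.0129). Without 18-month replicate 2 the calls of Nr4a1 (0.43, adjusted p = 0.151) and Nr4a2 (1.00, adjusted p = 0.0896) were lost, and that of Nr4a1 also without neonatal replicate 2 (0.35, adjusted p = 0.0728). Nr4a3 was highest in 3-month MGT cells, with 37.6 and 44.6 CPM, and its 18-month level was lower than that (log2 -0.59, adjusted p = 0.0137). In LacZ cells Nr4a3 had 8.46 and 11.8 CPM at 18 months, against 2.74 and 2.83 CPM in neonatal cells, an age difference of 1.86 that the interaction did not separate from that in MGT cells (-0.28, SE 0.30, adjusted p = 0.744).
Of 13 immediate early genes, which like the Nr4a family respond within minutes to stimuli, 4 rose (background 14.4%) and 3 fell (background 16.2%), with a median of 0.10. The falls numbered 1 without 18-month replicate 1 and 5 without 18-month replicate 2. Fosl1 had 26.1 and 29.6 CPM in 18-month MGT cells, against 11.6 and 10.7 CPM in neonatal MGT cells (log2 1.32), and Atf3 fell by 0.87 on the log2 scale. Of 7 genes reported as barriers to reprogramming 3 rose (background 14.4%) and none fell (background 16.2%). Snai1, a repressor of epithelial genes, had 49.3 and 57.1 CPM in 18-month MGT cells, against 20.9 and 21.1 CPM in neonatal MGT cells (log2 1.34, adjusted p = 1.88e-10), and Ezh2, a histone methyltransferase, rose by 0.39 on the log2 scale. Ptbp1, a splicing factor, had a log2 difference of 0.21 and lost its call without 18-month replicate 2 (0.17, adjusted p = 0.17) and without either neonatal library (adjusted p = 0.138 and 0.219). Bmi1, a polycomb gene, had 69.5 and 56.4 CPM in 18-month MGT cells, against 53.2 and 55.7 CPM in neonatal MGT cells and was not called (log2 0.21, adjusted p = 0.119), though it was without 18-month replicate 2 (0.34, adjusted p = 0.0232).

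Of 18 glycolysis genes 8 rose (background 14.4%) and 3 fell (background 16.2%), with a median of 0.20. The rises numbered 5 without 18-month replicate 2, where the median was 0.09, and 5 without neonatal replicate 2. Pkm, pyruvate kinase, had 1823 and 1975 CPM in 18-month MGT cells, against 1237 and 1168 CPM in neonatal MGT cells (log2 0.66, adjusted p = 2.67e-07), and Ldha, lactate dehydrogenase, had 644 and 661 CPM in 18-month MGT cells, against 512 and 512 CPM in neonatal MGT cells (log2 0.35). Slc16a3, the lactate exporter, fell, with 7.47 and 7.06 CPM in 18-month MGT cells, against 32 and 27.1 CPM in neonatal MGT cells (log2 -2.03). Of 18 nuclear genes of the respiratory chain 1, Atp5b, rose and 1, Cox6c, fell, with a median of -0.05, and the fall of Cox6c was lost without neonatal replicate 2 (-0.31, adjusted p = 0.0654). In this list 2 genes rose without 18-month replicate 1, and 2 fell without 18-month replicate 2. Over all genes 14.4% rose and 16.2% fell. Of 13 genes of the mitochondrial genome 7 rose (background 14.4%), with a median of 0.48. The mitochondrial genes were lower in neonatal replicate 2 than in replicate 1 for most members, and without it 4 rose. Their median was 0.76 without neonatal replicate 1, and 1 gene fell without 18-month replicate 1.

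Markers of other cell types moved with age. Of 12 endothelial markers tested 9 fell (background 16.2%) and 1, Eng, rose (background 14.4%), with a median of -3.04. Their summed level was 547 and 665 CPM in 18-month MGT cells, against 834 and 772 CPM in neonatal MGT cells. A large share of that sum was Eng, which other stromal cells also express, with 483 and 612 CPM in 18-month MGT cells, against 398 and 375 CPM in neonatal MGT cells. Pecam1 had 3.7 and 3.5 CPM in 18-month MGT cells, against 60.3 and 52.3 CPM in neonatal MGT cells (log2 -3.96, adjusted p = 1.28e-14), and Emcn fell by 4.59 on the log2 scale. The part of these cells in the other differences was not tested.
Of 11 epicardial and mesothelial markers 9 fell (background 16.2%) and 1, Aldh1a2, rose (background 14.4%), with a median of -2.28. Their sums were 340 and 325 CPM in 18-month MGT cells, against 554 and 589 CPM in neonatal MGT cells. Upk3b had 1.51 and 1.44 CPM in 18-month MGT cells, against 46.7 and 49.3 CPM in neonatal MGT cells (log2 -5.02), Wt1 fell by 5.71, and Krt8 had 0 counts in 18-month MGT cells against 198 in neonatal MGT cells, at least 61.5-fold lower taking 3 counts over the group as the floor. Msln, mesothelin, had 25 and 26.9 CPM in 18-month MGT cells, against 118 and 135 CPM in neonatal MGT cells, and 1.45 and 1.06 CPM in 18-month LacZ cells, against 127 and 122 CPM in neonatal LacZ cells. Upk1b, a uroplakin, had 26.5 and 30.6 CPM in 18-month MGT cells, against 83 and 89.6 CPM in neonatal MGT cells, and 1.62 and 2.18 CPM in 18-month LacZ cells, against 146 and 139 CPM in neonatal LacZ cells. Their interactions were 4.34 (SE 0.20, adjusted p = 8.91e-14) and 4.63 (SE 0.20, adjusted p = 1.83e-14).
Of 6 pericyte markers 4 fell (background 16.2%) and none rose (background 14.4%). Mcam had 10.48 and 10.8 CPM in 18-month MGT cells, against 143 and 145 CPM in neonatal MGT cells (log2 -3.76), and Cspg4, the NG2 proteoglycan, had 59.2 and 71.8 CPM in 18-month MGT cells, against 218 and 239 CPM in neonatal MGT cells (log2 -1.80, interaction 2.95, adjusted p = 7.69e-08).
Macrophage markers went the other way, with 11 of 16 higher (background 14.4%), 3 lower (background 16.2%) and a median of 1.01. Their sums were 514 and 439 CPM in 18-month MGT cells, against 199 and 277 CPM in neonatal MGT cells. Lyz2, lysozyme, had 319 and 251 CPM in 18-month MGT cells, against 113 and 165 CPM in neonatal MGT cells (log2 1.04, adjusted p = 0.00363). Adgre1, the F4/80 antigen, had 36.2 and 29.2 CPM in 18-month MGT cells, against 15.7 and 22.4 CPM in neonatal MGT cells (log2 0.78), and Csf1r, the receptor of Csf1, had 45.9 and 54.1 CPM in 18-month MGT cells, against 19 and 21.1 CPM in neonatal MGT cells (log2 1.32). Cd74, the invariant chain of MHC class II, had 38 counts in 18-month MGT cells against 1 in neonatal MGT cells (ratio 40.8, exact 95% interval 6.90 to 1654, counting error only), while the complement genes C1qb and C1qc fell by 1.73 and 1.79 on the log2 scale. The part of macrophage RNA in the rise of cytokine, chemokine and Mmp12 reads was not tested. Its part in the levels of the interferon-stimulated genes was not tested either. Both adipocyte markers tested rose (background 14.4%), Lpl by 0.65 and Fabp4 by 1.16 on the log2 scale.

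Most of the age difference in MGT cells had the same direction in LacZ cells, which share no library with it. LacZ cells had the same imbalance of Y-linked reads between the ages, so the shared direction cannot tell age from sex. Of the 2652 genes that fell in MGT cells 1918 (72.3%) also fell in LacZ cells and 6 rose there. Of the 2351 that rose 1654 (70.4%) also rose in LacZ cells and 23 fell there, among them Dcn, Hp, Igfbp4 and Wnt5a. In LacZ cells 5729 genes (35%) were called with age in all. The interaction was called for 461 genes (2.82%), 332 (2.03%) with a positive sign and 129 (0.788%) with a negative one. A positive sign means a larger rise or a smaller fall with age in MGT than in LacZ cells on the log2 scale, not in CPM. These counts depended on the libraries used: without 1 library at a time 241 to 372 genes were called, with the lowest count without MGT 18-month replicate 2, and with the 3-month groups left out of the fit 882 were called.

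**Figure D5:**
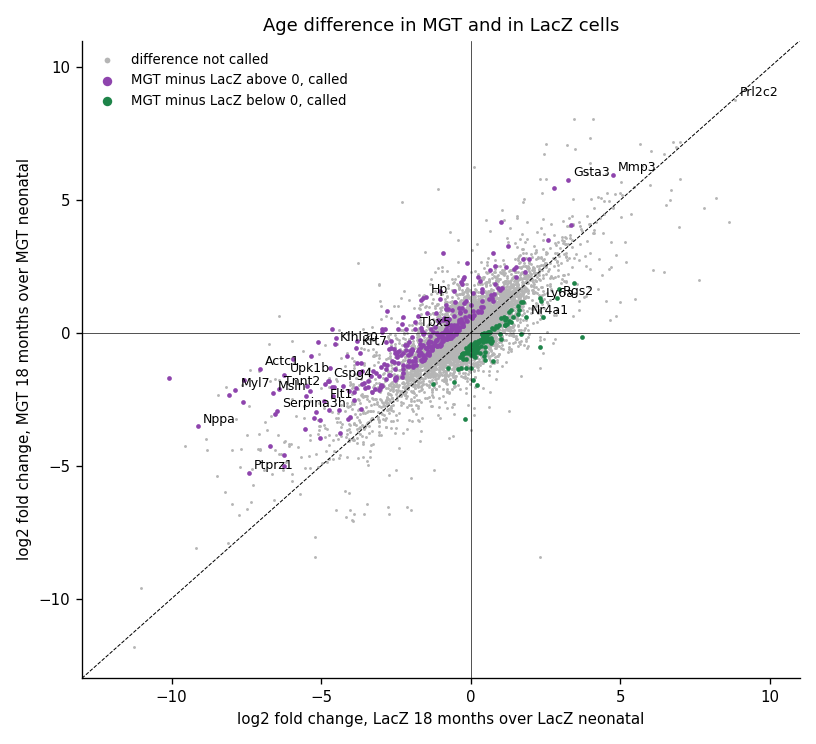
Log2 fold change of 18 months over neonatal in MGT cells (y axis) against that in LacZ cells (x axis), with 1 point a gene, genes called in the interaction in purple (positive) or green (negative), and the line of equal change dashed. Actc1, Myl7, Upk1b and Msln lie above the line, with larger falls on the log2 scale in LacZ than in MGT cells.

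Among genes called in both tests that averaged at least 3 on the log2 CPM scale, the largest positive interactions were those of Myl7, Actc1, Upk1b, Msln and Tnnt2, described above, and of Klhl30, Serpina3h and Krt7. Klhl30, a muscle gene of the kelch family, had 24.7 and 33.2 CPM in 18-month MGT cells, against 33.9 and 43.9 CPM in neonatal MGT cells, and 0.406 and 0.124 CPM in 18-month LacZ cells, against 6.61 and 6.3 CPM in neonatal LacZ cells (interaction 4.12, adjusted p = 3.49e-07). Its small fall in MGT cells was not called without 18-month replicate 1 (-0.21, adjusted p = 0.4) or neonatal replicate 2 (-0.24, adjusted p = 0.363). Serpina3h (3.56) shares sequence with other serpins, and Krt7 (3.25), an epithelial keratin, lost its MGT call without 18-month replicate 2 (-0.48, adjusted p = 0.11) or neonatal replicate 2 (-0.40, adjusted p = 0.197).
With the same limit on level, the largest negative interactions were those of Rgs2, Arhgap20, Aqp1, Gfra1, Ripor2, Nr4a1, Ly6a and Idh2. Rgs2, a regulator of G-protein signalling, had 14.1 and 11.6 CPM in 18-month MGT cells, against 5.12 and 5.33 CPM in neonatal MGT cells, and 15 and 17.5 CPM in 18-month LacZ cells, against 2.17 and 2.19 CPM in neonatal LacZ cells (interaction -1.59, SE 0.31, adjusted p = 0.00265). It rose in both cell populations, and the neonatal libraries differed more by treatment than the 18-month ones. Nr4a1 followed the same pattern, with 157 and 192 CPM in 18-month LacZ cells, against 46.6 and 50.3 CPM in neonatal LacZ cells (interaction -1.27, adjusted p = 0.0131). Aqp1, a water channel, fell in MGT cells, with 35.9 and 36.6 CPM in 18-month MGT cells, against 81 and 65.9 CPM in neonatal MGT cells (log2 -1.02), and rose in LacZ cells (log2 0.47), as did Idh2, a mitochondrial isocitrate dehydrogenase (log2 -0.74 in MGT and 0.31 in LacZ cells).

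Set against 3-month MGT cells, 18-month MGT cells had fewer differences: 1329 genes (8.12%) were higher and 1521 (9.29%) lower, together 2850 (17.4%). Without 1 library at a time 1367 to 2262 genes were called, with the lowest count without MGT 3-month replicate 2. Of the genes that fell against neonatal cells 839 (31.6%) were also lower than at 3 months, 1675 (63.2%) were not called and 138 were higher. Of those that rose 666 (28.3%) were also higher than at 3 months, 1523 (64.8%) were not called and 162 were lower. Both comparisons use the 18-month libraries, so these shares are given side by side and not as a result. Y-linked reads of 3-month MGT cells were near those of 18-month cells and above those of neonatal cells. In the smaller count against 3 months, age and sex thus cannot be told apart. Postn, with 188 and 159 CPM at 3 months, and Mmp3, with 888 and 967 CPM, had reached levels near those of 18 months by then, whereas Col11a1, with 211 and 218 CPM, was still nearer to its neonatal level. Il6 was highest at 3 months, with 148 and 117 CPM in neonatal, 578 and 629.5 CPM in 3-month and 181 and 160.1 CPM in 18-month MGT cells, and its difference between 18-month and neonatal cells was not called (log2 0.36, adjusted p = 0.0717), except without neonatal replicate 1 (0.54, adjusted p = 0.0113) and in DESeq2 and some other fits.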

How the data were processed

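RNA-seq of mouse cardiac fibroblasts given MGT or LacZ was used. Per the labels' protocols, RNA was extracted with TRIzol, depleted of rRNA and sequenced from both ends, while the labels also name the molecule polyA RNA. Per the submitters' processing notes, Trimmomatic 0.36, SAMtools, Subread's featureCounts 1.5.1 and genome build mm10 were used. The aligner, annotation and strand setting are not given in the sources used here. The authors deposited whole-number read counts per gene, and these were tested. The 12 FPKM columns beside them were not used, and 0 columns matched no sample. CPM were computed here from the counts and the scaled library totals of the genes that passed the filter. The sums of the Y-linked genes used all counts of a library.

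Genes were filtered with filterByExpr over 12 libraries of 6 groups, scaled by TMM and tested with edgeR 4.0.16 (quasi-likelihood F test, robust, limma 3.58.1, R 4.3.3). The standard error is the log2 fold change divided by the root of F, and a gene is called at a Benjamini-Hochberg adjusted p under 0.05. Alternatives were DESeq2 1.42.0, other scalings and filters, a replicate block, fits without chromosomes X and Y or with only the groups compared, and each library left out. The test was checked on simulated data. Medians of a list are over its tested members. Ratios of genes with 0 to 3 counts in a group carry exact intervals or a floor of 3 counts, for counting error only, since reads without molecular identifiers are not independent molecules.

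Members and lists were chosen with earlier results of these data known. Genes named by rule were Nr4a3, the 3 factors, CDK inhibitors, Mki67 and sex-linked genes, the 12 largest rises and falls and the 8 largest interactions each way (average log2 CPM of at least 3), and up to 4 members a list with the smallest p. The rises and falls were limited to called genes whose libraries did not overlap between the ages. Predicted genes were left out of the rises, falls and interactions. Other named list members were chosen after their values were seen. Some genes are not reported here.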

Additional observations from a re-analysis of the deposited data

Results flagged for a closer look

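The difference between the age difference of MGT cells and that of LacZ cells was tested as an interaction term, and the genes named by rule or described in the text for which it was called are given here, with the interaction on the log2 scale (MGT minus LacZ). Over all genes it was called for 461, of which 332 were positive and 129 negative.
Positive values among cardiac genes were Myl7 5.71, Actc1 5.70, Mybpc3 5.81, Nppa 5.61, Tnnt2 4.32, Klhl30 4.12, Des 1.80, Myom1 1.56, Tbx5 2.01 and Tbx3 1.34, and the first 4 of these rest on 0 or 1 counts in 18-month LacZ cells. Tbx5 was delivered to MGT cells only, so its value may set reads of delivered copies against reads of the cells' own gene.
Among mesothelial, epithelial and vascular genes they were Upk1b 4.63, Msln 4.34, Krt18 3.48, Krt7 3.25, Lrrn4 2.46, Upk3b 1.21, Flt1 2.34, Emcn 1.65, Pecam1 1.09, Cspg4 2.95 and Mcam 0.62.
Among matrix and protease genes they were Lum 2.41, Eln 1.75, Mmp3 1.20, Col1a1 0.85, Dcn 0.83, Loxl2 0.79, Ltbp2 0.68 and Mmp2 0.60.
Among genes of inflammation they were Serpina3h 3.56, Saa3 3.51, Hp 2.85, C1s1 1.37, C3 0.83, Lcn2 0.79, F3 0.72, Tapbp 0.64, Csf1r 0.61 and Ifit2 0.55.
The others were Gsta3 2.52, Igfbp4 2.29, Ptprz1 2.17, Wnt5a 1.13, Meg3 1.13, Rian 0.77, Cdkn2b 0.97, Plagl1 0.86, Lpl 0.72, Pmaip1 0.59 and Thy1 0.52.
Negative values were those of Dkk2 -1.85, Rgs2 -1.59, Arhgap20 -1.56, Aqp1 -1.49, Gfra1 -1.31, Ripor2 -1.28, Nr4a1 -1.27, Ly6a -1.13, Idh2 -1.05, Cxcl1 -0.57, Grem1 -0.57, Cdk1 -0.59, Ccnb2 -0.59, Cdkn1b -0.55, Cox6c -0.54 and S100a4 -0.51.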

How the results depend on the processing

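The count of 5003 genes called between 18-month and neonatal MGT cells stayed within 1.5 times under every alternative run. It was 4338 with DESeq2, 4800 with no filter on low counts and 4701 with a mean CPM of at least 1. It was 6002 with the LacZ 3-month libraries left out, an alternative chosen after seeing the data because these libraries differed most between themselves. Without 1 library at a time it was 3534 to 3986. For LacZ cells the range was 4107 to 4493.
The interaction was less stable. Its 461 calls became 882 with only the groups compared and 1013 with the LacZ 3-month libraries left out, the positive ones 505 and 620, and the negative ones 377 and 393, or 202 with no filter. Without 1 library at a time it gave 241 to 372 calls, 192 to 290 positive and 39 to 82 negative, of which 16 to 28 were at least 2-fold. For 18 against 3 months the ranges were 1367 to 2262 called, 576 to 1189 higher and 791 to 1073 lower. The cause was not tested.
Directions turned for 4 genes that were not called: Cdkn1a was 0.02 with upper-quartile factors, 0.03 without 18-month replicate 1 and 0 without neonatal replicate 2, Cdkn2b was 0.06 without 18-month replicate 1 and -0.26 without 18-month replicate 2, Ccnb2 was 0.08 without neonatal replicate 1 and -0.17 without neonatal replicate 2, and Tbx5 was -0.01 without 18-month replicate 2 and 0.31 without 18-month replicate 1.
Same-numbered libraries did not deviate together (correlations of -0.06 to 0.07). A pairing with an effect small against the other spread would not be seen in this way. With a replicate block 4984 genes were called, 4905 of them shared, 443 in the interaction, 5683 in LacZ cells and 2807 for 18 against 3 months. Under the block Myl4 was called higher, and Ptbp1 and Zbp1 were not called.
With 2 libraries a group, genes under about 1 CPM rest on few counts.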
